A study of Mus musculus with 3 samples.

Results

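The predicted miRNAs of postnatal day 7 (PND7) testis extracellular vesicles (EVs) were the small RNAs that the authors called from the reads with miRDeep2, outside the annotated miRNA set. They were chosen by the opening of their identifier, with mature and hairpin entries both kept. An entry is a pair of identifier and type, and 228 of the 2780 small RNA entries counted in any library met the rule. These entries belonged to 156 identifiers on 146 predicted precursors. Testis EVs were isolated from C57/BL6 male mice at day 7, the libraries were 3 biological replicates of this single condition, and each came from vesicles pooled from 10 mice. The vesicles were taken from the supernatant of decapsulated testes digested with Accumax, bound to an exoEasy membrane, concentrated by ultracentrifugation and treated with proteinase K, PMSF and RNase A before RNA extraction. The titles carry the word treated, no untreated group was analysed here, and the cells that released the vesicles were not separated.

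In the deposited catalogues the identifiers start with an English synonym of new, then mmu, then a serial number and an arm. That opening word is written here as predicted. Thus predicted miR205-5p is the 5′ arm of the prediction numbered 205 and is an identifier separate from the annotated miR-205-5p, which had 0, 0 and 38 counts in replicates 1, 2 and 3. Of the 146 serial numbers, 60 were also carried by an annotated miRNA counted in these libraries. The serial numbers ran from 2 to 496. The catalogues give neither a sequence nor a position for these identifiers, so no sequence, locus or seed is shown, and predictions that share a locus or a sequence could not be recognised. Identifiers were matched over libraries by name. The sources used here do not say whether predictions were made per library or over all libraries. That a name stands for the same prediction in every library could therefore not be checked.

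An miRNA is cut from a hairpin in the primary transcript by Drosha and then from the hairpin's loop by Dicer, and the strand from either the 5′ or the 3′ arm is loaded into an Argonaute protein. The mature strand pairs through its seed with target mRNAs and lowers their output. miRDeep2 predicts precursors from the way reads stack on a candidate hairpin, where a true precursor leaves mature strand, star strand and loop in fixed positions. A mature entry is taken here as reads counted on the mature strand. The sources used here do not define the hairpin type, and they do not say where predictions stood in the authors' order of databases.

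The libraries held 25716952, 26002463 and 27939308 clean reads in replicates 1, 2 and 3, and 1481785, 1775370 and 1692640 counts on miRNA entries of mature, hairpin and precursor type. A single count thus equalled between 0.563 and 0.675 CPM, the count scaled to a total of 1e6 miRNA counts in each library. The mature miRNAs listed as markers gave the tissue check. The 3 gonadal miRNAs, with miR-202 among them, were counted in every library, at 21357 to 29846 CPM of the mature counts in sum. miR-122-5p, the liver miRNA, stayed under 1 CPM, the neuronal list held 1.03 to 23.9 CPM with no mature count of miR-124-3p, the muscle list 572 to 1040 CPM and the erythroid list 356 to 597 CPM. The endothelial pair held 8790 to 17143 CPM. Of the germ cell pair miR-34c-5p had no mature count in any library, and the pair held 442 to 1060 CPM.

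Predicted miRNAs, which had no entry of precursor type, were a small part of the miRNA counts in every library. They took 11627 counts in replicate 1, 15802 in replicate 2 and 15749 in replicate 3. Their share of the miRNA counts was 0.785% (exact Clopper-Pearson 95% interval 0.771% to 0.799%) in replicate 1, 0.890% (0.876% to 0.904%) in replicate 2 and 0.930% (0.916% to 0.945%) in replicate 3. The mean was 0.868% ± 0.0753 (SD, n = 3). The intervals cover counting error only, since copies made by PCR were not told apart. Replicate 1 was the lowest and its interval did not reach those of the other libraries. Of the clean reads, predicted miRNAs held 0.0541% ± 0.00802 (SD, n = 3).

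The higher shares of replicates 2 and 3 each rested on 1 of a pair of identifiers, which were picked for these high counts after seeing the data. Predicted miR75-5p alone held 17.6% of the predicted counts of replicate 2, against 0.559% and 2.15% in replicates 1 and 3. Predicted miR293-5p held 21.8% of those of replicate 3, against 1.66% and 2.10% in replicates 1 and 2. Without this pair the share of the miRNA counts was 0.767%, 0.714% and 0.707% in replicates 1, 2 and 3, with a mean of 0.730% ± 0.0328 (SD, n = 3), and replicate 1 became the highest.

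When all 805 miRNA identifiers were ranked by their mean CPM, mature and hairpin entries summed, the first predicted miRNA stood at rank 81. This was predicted miR205-5p, with 2193, 1193 and 1617 counts in replicates 1, 2 and 3 and 1036 ± 410 CPM (SD, n = 3). Its neighbours in the ranking were miR-15b-5p, with 1055 ± 94.3 CPM, and the muscle miRNA miR-133a-3p, with 1029 ± 263 CPM, and both lay within the spread of predicted miR205-5p. Of the 100 highest identifiers 4 were predicted, of the 200 highest 16 and of the 300 highest 31, against 156 of all 805. The median predicted miRNA had 44 counts summed over the libraries, and the median annotated miRNA had 158. The plot of abundance by rank shows where the predictions fell.

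**Figure D1:**
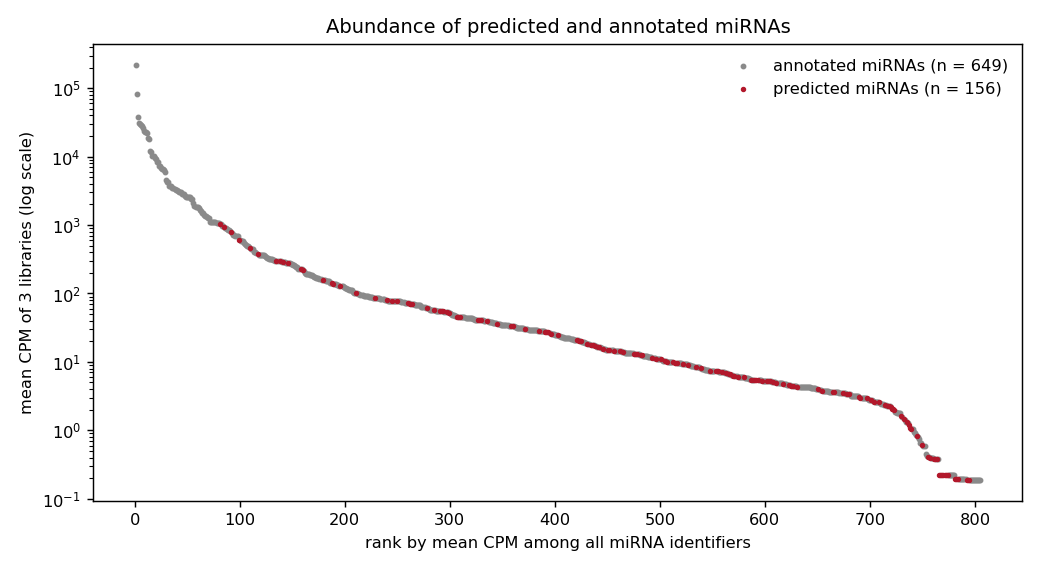
Mean CPM of the 3 libraries (vertical axis, log scale) against rank for the 649 annotated (grey) and 156 predicted (red) miRNA identifiers, mature and hairpin entries summed. Each point is 1 identifier, and the first red point stands at rank 81.

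The counts of the predictions were concentrated in few identifiers. Annotated counts were concentrated as well, with means of 220124 CPM for miR-127-3p and 82398 CPM for let-7c-5p. The 5 predictions with the highest mean share, predicted miR205-5p, miR311-3p, miR293-5p, miR75-5p and miR423-5p, held 37.2%, 45.1% and 49.0% of the predicted counts in replicates 1, 2 and 3, or 43.7% ± 6.01 (SD, n = 3). The 10 highest identifiers held 62.0% of the counts pooled over libraries, and all 10 were counted in every library. At the other end, 31 of the 156 identifiers had under 10 counts in all, and 16 of these had a single count.

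The leading predictions fell into steady and unsteady ones. Predicted miR311-3p had 1421, 1857 and 1419 counts, which made 948 ± 104 CPM (SD, n = 3) and rank 85. Predicted miR434-5p had 571, 732 and 565 counts, or 377 ± 39.9 CPM (SD, n = 3). In both, the highest CPM exceeded the lowest by about the same factor, 1.25 and 1.24. The low-abundance predicted miR202-3p was steadier still by this measure, at 7.28 ± 0.171 CPM (SD, n = 3), but its 11, 13 and 12 counts were so few that counting error alone would give a wider spread.

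Predicted miR293-5p had 193 and 332 counts in replicates 1 and 2 and 3439 in replicate 3, so that its 783 ± 1082 CPM (SD, n = 3) describe no library. Without replicate 3 its mean was 159 CPM. Predicted miR75-5p had 65 counts in replicate 1, 2787 in replicate 2 and 338 in replicate 3, or 604 ± 840 CPM (SD, n = 3), and 122 CPM without replicate 2. For each of them 1 library stood far above the others, and it was not the same library. Predicted miR111-5p showed the pattern at a lower level, with 12, 112 and 17 counts, or 27.1 ± 31.2 CPM (SD, n = 3), and 9.07 CPM without replicate 2. The ratio of highest to lowest CPM was 15.6 for predicted miR293-5p, 35.8 for predicted miR75-5p and 7.79 for predicted miR111-5p, the largest ratios among the 48 predictions that reached 10 counts in each library.

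The other identifiers among the 10 highest varied less. Predicted miR423-5p had 451, 954 and 900 counts, or 458 ± 133 CPM (SD, n = 3), with replicate 1 the lowest. Predicted miR450-5p had 288, 886 and 349 counts, or 300 ± 173 CPM (SD, n = 3), with replicate 2 above the others. Predicted miR220-5p went the opposite way, with 732, 148 and 435 counts, or 278 ± 206 CPM (SD, n = 3), lowest in replicate 2. Its mean was 170 CPM without replicate 1 and 375 CPM without replicate 2. Between predicted miR450-5p, miR220-5p and both arms of predicted miR474 the means differed by less than any of their SDs.

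**Figure D2:**
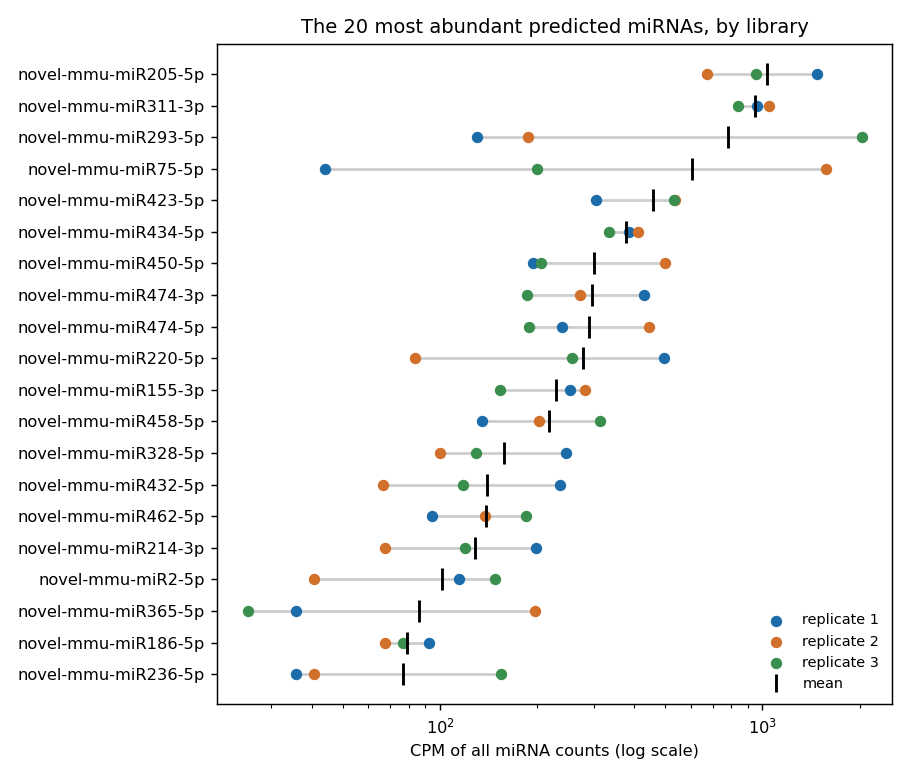
CPM of all miRNA counts (horizontal axis, log scale) of the 20 most abundant predicted miRNAs in replicates 1, 2 and 3 (coloured points), with the mean as a black bar and the full deposited identifiers at the left. The points of predicted miR311-3p, miR434-5p and miR186-5p lie close together, whereas 1 library stands far to the right for predicted miR293-5p and miR75-5p.

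Reads of the predictions were mostly of the hairpin type. Hairpin entries took 8437, 13784 and 12735 counts in replicates 1, 2 and 3, and mature entries took 3190, 2018 and 3014. The hairpin share of the predicted counts was therefore 72.6%, 87.2% and 80.9%, or 80.2% ± 7.35 (SD, n = 3). The mature share minus the hairpin share was -60.4 ± 14.7 percentage points (SD, n = 3), below 0 in 3 of 3 libraries, and an exact permutation of the signs over libraries gave a two-sided p of 0.25. With 3 libraries no p of this test can be lower than 0.25, which also holds for the other tests of this kind. Over the whole libraries 3 such tests were made, and each had a Benjamini-Hochberg adjusted value of 0.25.

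Annotated miRNAs showed the opposite balance in their summed counts. Among their counts the hairpin share was 36.7% ± 0.777 (SD, n = 3), and it lay between 35.8% and 37.3%. The share in predictions exceeded it by 36.7, 49.9 and 43.9 percentage points in replicates 1, 2 and 3, a mean of 43.5 ± 6.59 (SD, n = 3; two-sided p = 0.25 by exact permutation of the signs), with predictions higher in 3 of 3 libraries. Less abundant annotated miRNAs had a higher hairpin share. Among the 589 annotated identifiers that had in no library more than 3439 counts, the highest count of any prediction, it was 46.7% ± 0.201 (SD, n = 3), and the difference was 33.5 ± 7.44 percentage points (SD, n = 3). As a result of this balance predictions made up 2.06% ± 0.300 of all hairpin counts but 0.293% ± 0.0844 of all mature counts (SD, n = 3 each).

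Many predictions had no counts of the mature type. Of the 156 identifiers 76 had hairpin counts alone, 8 had mature counts alone and 72 had both, whereas 125 of 649 annotated identifiers (19.3%) lacked mature counts. Few counts make an empty mature entry more likely, so the shares were also compared within ranges of the total count. With at least 100 and under 1000 counts in all, 12 of 38 predictions (31.6%) and 20 of 222 annotated miRNAs (9.01%) had no mature count. With 1000 or more, 3 of 12 predictions and 0 of 150 annotated miRNAs had none. The 3 predictions were predicted miR423-5p, miR474-5p and miR458-5p, the last with 200, 360 and 531 hairpin counts. Identifiers are not replicates, and no test was made on these shares.

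Predicted miR205-5p, miR474-3p and miR220-5p were the leading predictions with a large mature part. Predicted miR205-5p had 1305, 517 and 946 mature counts against 888, 676 and 671 hairpin counts, so the mature type led in replicates 1 and 3 and the hairpin type in replicate 2. Predicted miR220-5p had 355, 47 and 207 mature against 377, 101 and 228 hairpin counts, with the hairpin type higher in every library. Predicted miR474-3p had 370, 459 and 222 mature against 267, 24 and 94 hairpin counts. Mature counts exceeded hairpin counts in every library for 3 of the 156 predictions, against 143 of the 649 annotated identifiers. This requires mature counts in every library, which 27 predictions and 300 annotated identifiers had. Beside predicted miR474-3p, the predictions with such an excess were predicted miR380-5p and miR331-5p. Predicted miR380-5p had 96, 144 and 90 mature against 1, 25 and 0 hairpin counts. For predicted miR331-5p it was 27, 42 and 34 against 16, 1 and 0. Replicate 2, the library with the highest hairpin share, had the fewest mature entries of predictions, 38 against 49 and 62 in replicates 1 and 3.

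**Figure D3:**
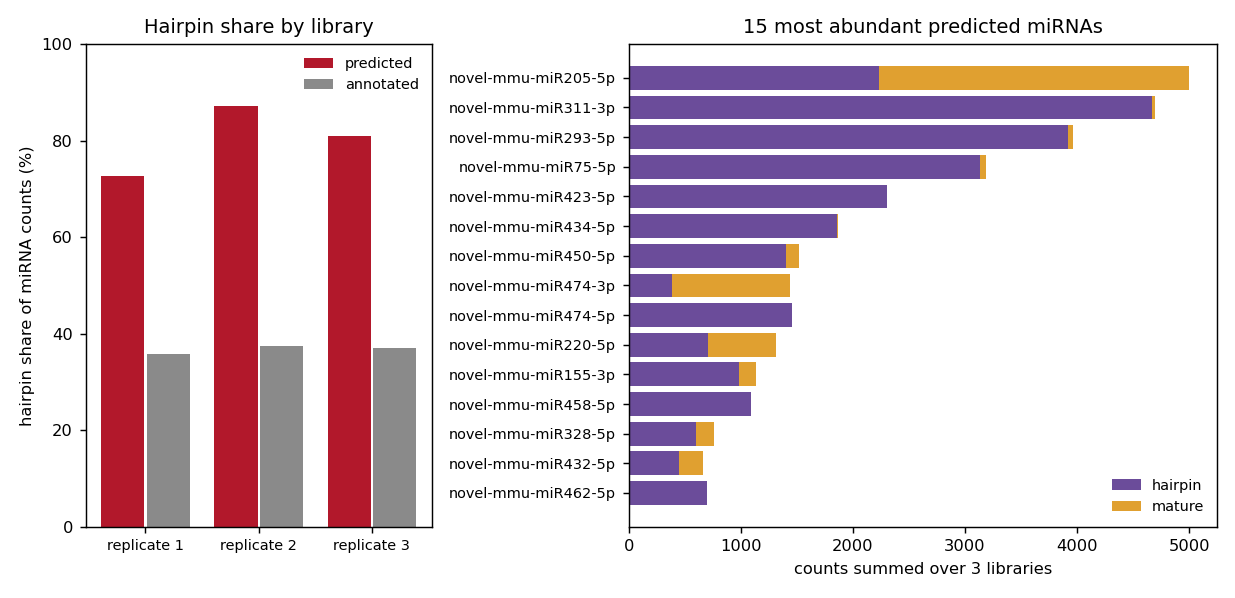
Left, hairpin share (%) of the counts of predicted (red) and annotated (grey) miRNAs in each library. Right, counts summed over the 3 libraries for the 15 most abundant predictions, divided into hairpin (purple) and mature (orange) counts. The hairpin share of predictions lies above 70% in every library and that of annotated miRNAs below 40%.

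By arm, 86 identifiers were from the 5′ and 70 from the 3′ arm, and annotated identifiers with a named arm divided into 295 and 299. The 5′ arm held 67.6%, 72.2% and 77.0% of the predicted counts in replicates 1, 2 and 3, or 72.3% ± 4.73 (SD, n = 3), and 8 of the 10 highest identifiers were 5′ arms. The unsteady predicted miR293-5p and miR75-5p were among them. Most of the highest annotated miRNAs were 5′ arms too, such as let-7c-5p, miR-181a-5p and let-7a-5p, although miR-127-3p ranked first. The share of annotated counts by arm was not computed. With mature and hairpin types summed, both arms of the same precursor were counted for 10 of 146 predicted precursors (6.85%). For annotated miRNAs it was 185 of 409 precursor names (45.2%). Among precursors with 1000 or more counts in all, it was 1 of 11 predicted and 94 of 135 annotated, and among those with at least 100 and under 1000 counts 5 of 39 and 70 of 149. Only predicted miR106 and miR327 had mature counts on both arms, and the same was not computed for annotated precursors. Annotated names were matched after removal of the arm ending. Arms with a numbered name, such as let-7c-1-3p, were therefore not paired with let-7c-5p and stood as separate names.

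Predicted miR474 was the only precursor of at least 1000 counts in all with both arms. Its 5′ arm had 353, 788 and 320 counts and its 3′ arm 637, 483 and 316, so the 3′ arm was higher in replicate 1, the 5′ arm in replicate 2, and they were nearly equal in replicate 3. The arms differed in type, since all reads of the 5′ arm were hairpin counts and those of the 3′ arm were 26.8% hairpin counts when pooled over libraries. Predicted miR78 was the other precursor with both arms in every library, with 6, 58 and 14 counts on the 5′ and 121, 23 and 48 on the 3′ arm, and the higher arm again changed in replicate 2.

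In the remaining 8 precursors the arms rarely met in the same library. Both arms of predicted miR327 were counted in 2 libraries, with 70, 40 and 52 counts on the 5′ and 3, 0 and 4 on the 3′ arm. For predicted miR24, miR106, miR120, miR152 and miR483 they met in 1 library. Predicted miR152-3p had all its 80 counts in replicate 2, beside 31, 115 and 54 counts of the 5′ arm. Predicted miR120 had 16, 0 and 0 counts on the 5′ and 12, 0 and 24 on the 3′ arm. Predicted miR74 and miR156 had no library with both, the first with 0, 0 and 32 counts on the 5′ and 8, 22 and 0 on the 3′ arm, and the second with 0, 19 and 73 on the 5′ and 22, 0 and 0 on the 3′ arm. The minor arms of predicted miR24, miR106 and miR483 had a single count each.

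Of the 156 predictions, matched over libraries by name, 66 (42.3%) were counted in all 3 libraries, 38 in exactly 2 and 52 (33.3%) in 1. The 66 held 93.0% of the pooled predicted counts and the 52 held 1.98%. Replicate 1 alone had 19 of the 52, replicate 2 had 11 and replicate 3 had 22. The highest counts among them were the 80 of predicted miR152-3p in replicate 2, the 52 of predicted miR421-5p in replicate 3 and the 51 of predicted miR134-3p in replicate 3. By counting error alone, a library with no count of an identifier allows up to 3 counts, or 1.69 to 2.02 CPM. These counts lay above that, but they were picked as the highest of the 52, and the libraries differed by more than counting error. Whether these identifiers were absent from the other libraries was not tested. Among annotated identifiers 392 of 649 (60.4%) were counted in all 3 libraries.

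Seen from each library, 57.4%, 68.0% and 57.9% of the predictions counted in replicates 1, 2 and 3 were also counted in both other libraries, and for annotated miRNAs it was 76.9%, 76.3% and 77.3%. The difference was -15.7 ± 6.48 percentage points (SD, n = 3; two-sided p = 0.25 by exact permutation of the signs), with predictions lower in 3 of 3 libraries. The same 66 predictions and 392 annotated miRNAs entered these shares in every library, and only the numbers counted per library differed. The SD and p therefore do not rest on 3 independent differences. Within ranges of counts this holds in part, since an identifier can enter from each library. Within ranges of counts the mean difference was nearer to 0. With 1 to 9 counts in the library considered it was -10.3 ± 12.5 percentage points (SD, n = 3; p = 0.5 by the same exact permutation test), below 0 in 2 of 3 libraries. With 10 to 99 counts the share was 56.6% ± 6.94 for predictions and 57.6% ± 2.12 for annotated miRNAs (SD, n = 3 each), a difference of -0.983 ± 8.90 percentage points (SD, n = 3; p = 0.75 by the same exact permutation test) that had the same sign in 2 of 3 libraries. With 100 or more counts it was 93.0% ± 2.67 against 98.5% ± 0.217 (SD, n = 3 each), a difference of -5.52 ± 2.75 percentage points (SD, n = 3; p = 0.25 by the exact permutation test), below 0 in 3 of 3 libraries.

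**Figure D4:**
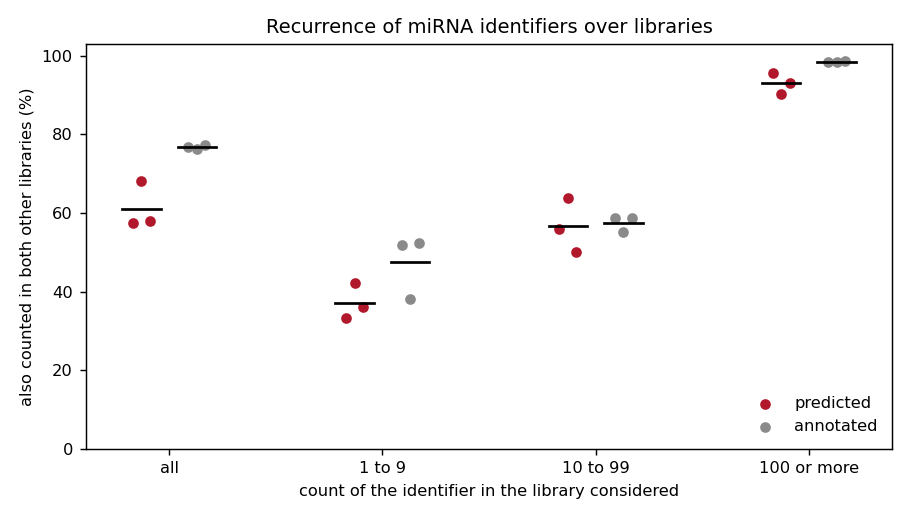
Share of identifiers (%) counted in a library that were also counted in both other libraries, for predicted (red) and annotated (grey) miRNAs, by the count of the identifier in the library considered. Each point is 1 of 3 libraries and the black lines are means, which lie near each other at 10 to 99 counts.

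Among the predictions counted in all libraries, the ratio of highest to lowest CPM had a median of 3.39, and 22 of 66 (33.3%) lay above 5. For the 392 annotated miRNAs the median ratio was 1.81 and 61 (15.6%) lay above 5. At mean counts of at least 100 and under 1000 the medians were 2.45 over 21 predictions and 1.81 over 157 annotated miRNAs, and at mean counts of 10 to 99 they were 3.70 over 35 and 2.92 over 123. The 4 predictions with a mean count of at least 1000 had a median of 8.90, since they comprise predicted miR293-5p and miR75-5p, and the 95 annotated ones 1.40. Among predictions the largest ratios belonged to predicted miR224-5p, with 115, 190 and 1 counts, and predicted miR392-5p, with 20, 2 and 207, and each had a library with hardly any count. They were 181 and 109, and the largest ratio of an annotated miRNA was 231. Annotated miRNAs of nearly the same sequence were kept in these medians, although the split of reads between such miRNAs is uncertain.

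The rank order of entries was less alike between libraries for predictions. Spearman's rho across the 228 predicted entries was 0.547 for replicates 1 and 2, 0.405 for 1 and 3 and 0.435 for 2 and 3, as a description across entries that share libraries. Across the 1119 annotated entries it was 0.801, 0.761 and 0.761. Restricted to the 48 predictions that had at least 10 counts in each of the libraries, the values were 0.648, 0.803 and 0.749, and over the 347 annotated identifiers of that kind they were 0.918, 0.881 and 0.883. None of these values was matched on abundance, and the median total count of all identifiers was 44 for predictions and 158 for annotated miRNAs. A chi-square of these 48 counts, divided by its degrees of freedom, lay between 84.7 and 134 for the pairs of libraries, and would lie near 1 if the libraries differed by counting error alone. It was larger for the 347 annotated identifiers, between 168 and 479, and it grows with the counts as well as with the spread.

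**Figure D5:**
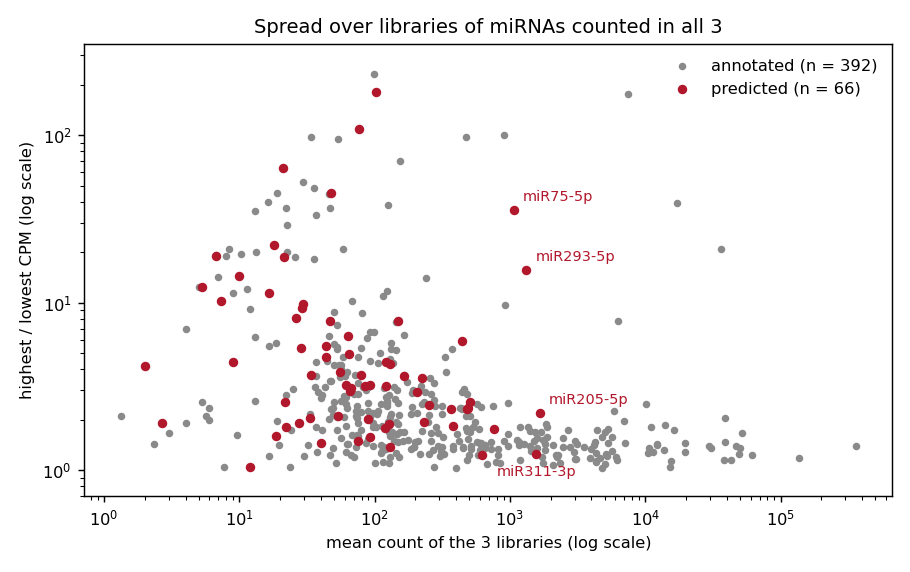
Ratio of the highest to the lowest CPM of the 3 libraries against the mean count (both axes log scale), for the 392 annotated (grey) and 66 predicted (red) miRNAs counted in all 3 libraries. The 4 predictions with a mean count of at least 1000 are named, and predicted miR75-5p and miR293-5p stand at ratios of 35.8 and 15.6.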

How the data were processed

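Small RNA of testis EVs was sequenced by the authors on the BGISEQ-500 platform as 3 libraries. Low-quality reads were removed, and Bowtie2 and cmsearch mapped the clean reads to the mouse genome, build mm10 in the submitters' processing notes, and to small RNA databases. Reads were classed in the order miRBase, piRNABank, snoRNA, Rfam and other small RNA. Predictions came from miRDeep2, and its version and settings are not given in the sources used here. The deposited values were whole-number counts per small RNA and class, without normalization. A deposited percent column gave class shares, and a further deposited column with other values, headed as molecular identifiers, equalled CPM of clean reads on every predicted entry and was used as a check alone.

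From the deposited counts, CPM were computed against all mature, hairpin and precursor counts of a library. Entries absent from a library were set to 0, and no sample was dropped. Types were summed per identifier unless stated. Differences within libraries were tested by exact permutation, flipping the sign of each library's difference, two-sided. The chi-square statistic was tested on simulated data. The members and lists were chosen with earlier results of these data known. The named predictions were the 10 most abundant, the 3 highest in 1 library only, the 3 largest and 3 smallest ratios over libraries among those with at least 10 counts in every library, and all precursors with both arms. Others were named after their values were seen. Alternatives changed the denominator, the scaling, the count minimum, the types, pooling and the libraries. The work used SciPy 1.17.1, numpy 2.4.6 and pandas 2.3.3 under Python 3.11.15, with plots by matplotlib 3.10.9.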

Additional observations from a re-analysis of the deposited data

How the results depend on the processing

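Of 55 alternative values for 9 main results 44 kept the direction of a tested difference or, for values without a test, stayed within the spread between libraries or within 1.5 times. No result reversed. The recurrence difference was smallest at 10 to 99 counts, -0.983 against -15.7 percentage points, a range chosen after seeing the data. The predicted share of miRNA counts, 0.868%, became 0.0541% of clean reads, 0.154% of annotated reads and 0.293% with mature entries alone, and 0.730% without predicted miR293-5p and miR75-5p, a choice made after seeing the data. The number of entries fell from 228 to 86 when counts in every library were required. The share of the 5 highest identifiers was 43.7%, and 60.4% among mature entries. The lowest rho was 0.405, and 0.607 over entries counted in every library or 0.501 with types summed. The median ratio of highest to lowest CPM was 3.39, and leaving out each replicate gave 1.83 to 2.16, each over 2 libraries in place of 3. The other results kept their direction without each replicate, with recurrence differences from -11.9 to -9.48 percentage points. Levels of all 32 named predictions stayed within their SD under median-of-ratios scaling. Leaving out 1 replicate moved the mean of 12 of the 32 by over 1.5 times, up to 4.96 times for predicted miR75-5p and 4.94 for predicted miR293-5p, and brought that of a further 9, counted in 1 library each, to 0. The SD exceeded the mean for 16 of the 32. With clean reads as the total 14 of the 32 moved, by construction. Depth limits the predictions under 10 counts, and a single count gives no level.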
